A study of Mus musculus with 6 samples.

Results

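A set of 10 genes used as markers of monocytes and dendritic cells was followed through bulk RNA sequencing of mouse haematopoietic stem cells (HSCs). They were chosen by symbol, and all 10 were found among the 49585 gene rows of the count tables: Csf1r, Ly6c2, Ccr2, Irf8, Fcgr1, Lyz2, Cx3cr1, Siglech, F13a1 and Klf4. The 6 libraries came from bone marrow of untreated C57BL/6 mice aged 8 to 16 weeks, and each library held the sorted HSCs of 10 pooled mice. The sorted cells lacked lineage markers, CD48 and CD34 and carried Kit, Sca-1, CD150 and CD201, and they were divided by high or low surface CD38. There were 3 CD38-positive and 3 CD38-negative libraries, matched in 3 pairs by the series' design text, so a replicate number below names a pair. The labels give no mutation, transgene or agent in either group.

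Monocytes and dendritic cells are myeloid cells that arise in bone marrow from HSCs through progenitors that progressively restrict their fate. The receptor CSF1R passes on survival signals from the growth factors M-CSF and IL-34, and transcription factors such as PU.1, IRF8 and KLF4 direct the monocyte and dendritic programmes. The lineage is known for patrolling blood and tissue, phagocytosis, antigen presentation and, in plasmacytoid dendritic cells, interferon production. HSCs are upstream of this lineage, and RNA of lineage genes in sorted stem cell pools can come from the stem cells or from other cells in the pool. In bulk libraries, fewer cells of a type and less RNA per cell cannot be told apart.

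Lyz2 and Ly6c2 have close relatives that sit near them in the genome, and their upstream sequences are shown because genes so alike differed widely in reads. The 120 bases upstream of each start are given here, 5′ to 3′ on the strand of the gene, from RefSeq (GRCm38.p6). Capitals mark AGGAAGT or its reverse complement, the core bound by ETS factors such as PU.1. In Irf8 they mark a TATA box type motif, spelled TATAAAA. For Lyz2 and Lyz1 the window ends 49 bases further upstream, outside the Lyz2 transcripts that GENCODE M21 starts earlier than RefSeq. Lyz2, at chr10:117282322-117282441 on the minus strand, and its relative Lyz1, at chr10:117292918-117293037 on the same strand, read as follows.
Lyz2: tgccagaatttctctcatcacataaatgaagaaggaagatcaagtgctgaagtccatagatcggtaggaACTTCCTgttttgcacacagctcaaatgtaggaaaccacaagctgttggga
Lyz1: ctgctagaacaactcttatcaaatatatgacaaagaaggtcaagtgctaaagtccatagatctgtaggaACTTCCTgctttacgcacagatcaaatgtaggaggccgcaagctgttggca
Ly6c2 (chr15:75111972-75112091, minus strand) and its relative Ly6c1 (chr15:75048838-75048957, minus strand) read as follows.
Ly6c2: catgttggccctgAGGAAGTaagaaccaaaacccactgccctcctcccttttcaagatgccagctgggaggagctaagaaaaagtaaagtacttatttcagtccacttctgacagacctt
Ly6c1: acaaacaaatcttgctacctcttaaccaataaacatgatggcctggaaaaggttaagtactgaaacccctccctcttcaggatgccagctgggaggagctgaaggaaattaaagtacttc
Fcgr1 (chr3:96293970-96294089, minus strand) is shown as the other gene of the set with the ETS type core, and Irf8 (chr8:120736238-120736357, plus strand) as the gene with the smallest p-value.
Fcgr1: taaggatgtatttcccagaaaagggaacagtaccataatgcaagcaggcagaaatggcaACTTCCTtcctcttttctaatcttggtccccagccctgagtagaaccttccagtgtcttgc
Irf8: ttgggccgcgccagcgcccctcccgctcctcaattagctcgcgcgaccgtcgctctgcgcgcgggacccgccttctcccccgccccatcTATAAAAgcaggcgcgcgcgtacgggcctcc

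The Lyz2 and Lyz1 windows were identical at 99 of 120 aligned bases (82.5%), and both held the ETS type core 100 bases before the RefSeq start. The Ly6c2 and Ly6c1 windows matched at 69 of 96 aligned columns (71.9%), and the core was present in Ly6c2 only. Over the 250 bases upstream of the start, on both strands, the core AGGAAGT was in 3 of the 9 genes searched (Ly6c2, Fcgr1 and Lyz2) and in 7.77% of 27025 promoters. The C/EBP type motif TTGCNNAA was in 1 of the 9 (Siglech) and in 9.55% of promoters. TATAAAA was in 1 of the 9 (Irf8, 31 bases before the start) and in 5.31% of promoters. Csf1r was not searched. The motifs were chosen after the sequences and counts had been seen, and a match describes letters, not binding.

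Despite the similar upstream sequences, reads were concentrated on one gene of each pair of relatives. Lyz2 encodes the lysozyme of granulocytes and macrophages, an enzyme that cleaves bacterial cell walls. It had 95818 to 236329 reads per library, while Lyz1, the lysozyme of intestinal Paneth cells, had 38 to 123. Per base of exon, Lyz2 exceeded Lyz1 by 1700-fold to 3130-fold. Ly6c2, a surface protein that marks classical monocytes, had 11720 to 32205 reads against 14 to 39 for Ly6c1, a ratio per base of exon of 258 to 548. Of all 50-base stretches of their annotated transcripts, 84.6% for Lyz2, 83.9% for Lyz1, 85.5% for Ly6c2 and 67.2% for Ly6c1 occurred in no other gene. Most of each transcript can therefore be told from that of the relative at that length, although the read length and the handling of reads with several matches are not given in the sources used here.

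The levels of the 10 genes differed widely when set per length, as RPKM (CPM, defined below, per kilobase of exon). Lyz2 was first with a mean of 7333 RPKM over the 6 libraries (4048 to 10770), followed by Ly6c2 with 355 RPKM (242 to 705). The ranges of these genes and of F13a1, the A subunit of coagulation factor XIII, did not overlap. F13a1 had a mean of 43.3 RPKM (30.3 to 66.4). Next were Irf8 with 19.5 RPKM, Csf1r with 13.4 RPKM and Ccr2 with 9.44 RPKM, and the ranges of neighbours from F13a1 to Ccr2 overlapped, although the order held within all 6 libraries. At the low end were Fcgr1 with 2.20 RPKM, Cx3cr1 with 1.45 RPKM, Siglech with 1.32 RPKM and Klf4 with 0.501 RPKM. Ccr2 did not overlap with Fcgr1. Among the low genes the ranges of neighbours overlapped, with Fcgr1 above Cx3cr1 in 5 of 6 libraries, Cx3cr1 above Siglech in 4 of 6 and Siglech above Klf4 in 6 of 6. The ranges of Fcgr1 (1.36 to 2.80 RPKM) and Klf4 (0.261 to 0.826 RPKM) did not overlap.

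Lyz2 dominated the set. It took 81.8% to 88.6% of the reads of the 10 genes in each library, and Ly6c2 took 6.26% to 11.4%. The 10 genes together took 1.22% ± 0.266 (SD, n = 3) of all reads counted on the CD38-positive side and 0.986% ± 0.272 (SD, n = 3) on the other. By library the share was 1.52%, 1.01% and 1.14% in CD38-positive replicates 1, 2 and 3 and 1.24%, 0.699% and 1.02% in their partners. The groups overlapped, and the share was higher on the CD38-positive side of each pair. Without Lyz2 and Ly6c2 the other 8 genes took 0.0754%, 0.0759% and 0.0591% in CD38-positive and 0.0528%, 0.0526% and 0.0353% in CD38-negative libraries, and here the groups did not overlap. F13a1 alone made up 39.8% to 55.8% of the reads of these 8 genes. Without F13a1 the other 7 took 0.0269% to 0.0457% in CD38-positive and 0.0156% to 0.0305% in CD38-negative libraries, and the groups overlapped. They also overlapped when Lyz2 alone was left out, at 0.130% to 0.249% and 0.117% to 0.154%. For the full set the 95% Wilson interval of a library extended at most 0.00557 percentage points to either side. Such intervals describe the counting of reads alone and leave out the spread between libraries. They also treat reads as independent, although reads were not collapsed to molecules.

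**Figure D1:**
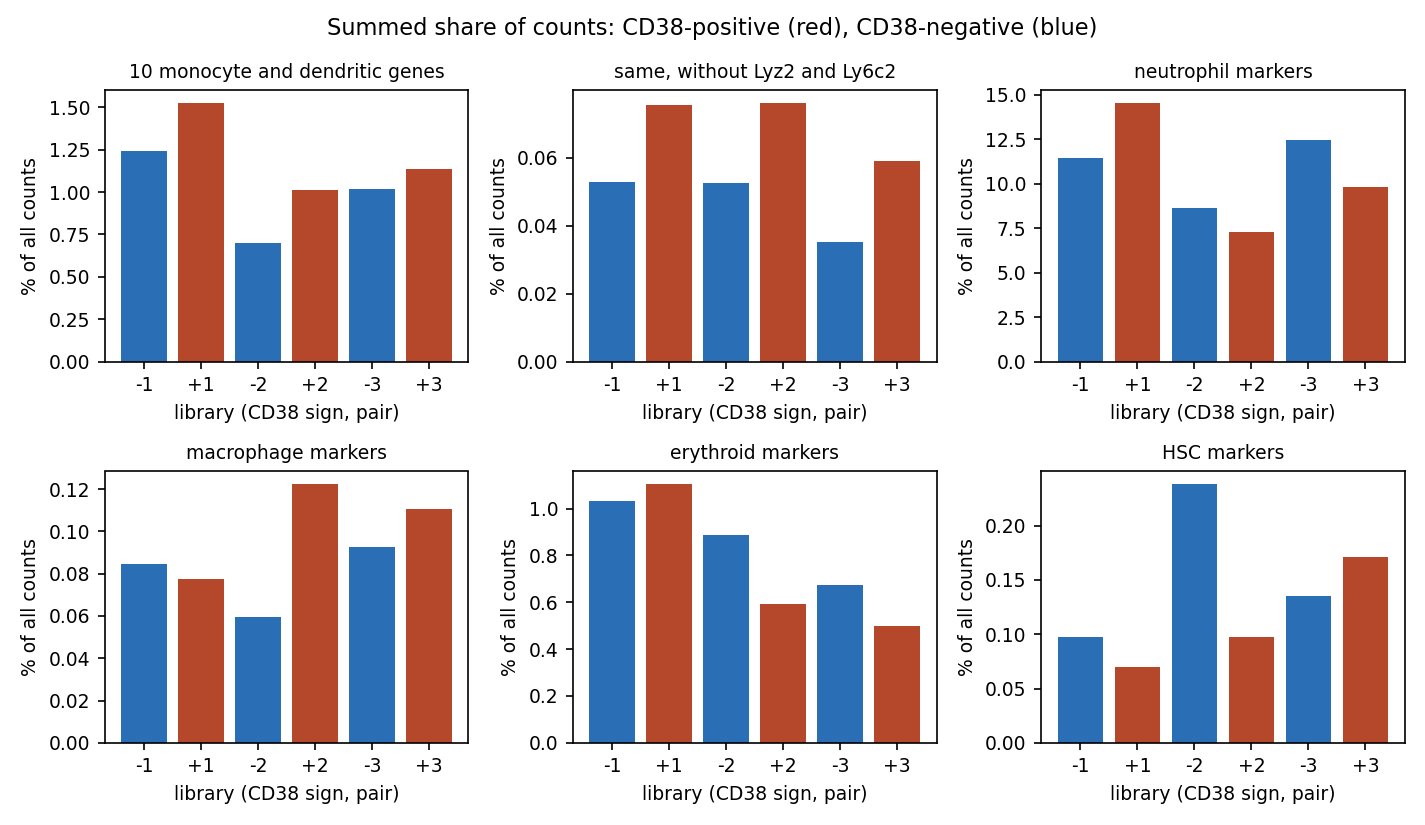
Share of all counts (vertical axis, percent, linear from 0) taken by 6 gene sets in each library, ordered by pair on the horizontal axis; red bars are CD38-positive and blue bars CD38-negative libraries. The 10 monocyte and dendritic genes ranged from 0.699% to 1.52%, neutrophil markers from 7.31% to 14.5%, and HSC markers from 0.0694% to 0.238%.

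Markers of other cell types were read beside the set, and their part in its values was not tested. All 12 HSC markers listed had reads in every library, with a summed share of 0.0694% to 0.171% in CD38-positive and 0.0978% to 0.238% in CD38-negative libraries. Their median log2 fold change, CD38-positive over CD38-negative, was -0.40, with pair medians of -0.19, -1.04 and 0.34, and 8 of the 12 had a negative fitted value. None of the 12 passed an adjusted p-value of 0.05 in edgeR's test, described below. An unadjusted p-value under 0.05 was found for 5 of them, against 5.08% of all genes tested. Of these, 4 (Kit, Ly6a, Hlf and Meis1) had a negative fitted value. The other was Cd38, at 0.76, the gene of the protein by which the groups were sorted. Cd38 is part of the share, medians and counts given for this list. All 12 neutrophil markers also had reads in every library, at 7.31% to 14.5% and 8.65% to 12.4% of counts. The 10 erythroid markers took 0.498% to 1.10% and 0.674% to 1.03%, with 9 of 10 fitted values negative (median -0.29). Their pair medians were 0.16, -0.39 and -0.73, so pair 1 had the opposite sign. The 11 B and plasma cell markers took 0.0158% to 0.0502% and 0.0806% to 0.272%. The 8 T and NK cell markers took 0.0145% to 0.0304% and 0.0199% to 0.0290%. Most of these reads were those of Nkg7, with 2090 to 5231 per library, while the next gene, Klrb1c, had 125 to 361. Cd3e, a chain of the T cell receptor complex, was at 0 reads in 4 of 6 libraries, the only gene of the list with 0 in any. Reads per library were 6 to 18 for Cd3g, 9 to 32 for Cd3d, 56 to 107 for Cd4 and 1 to 13 for Cd8a. CD38-positive replicate 1 had the highest neutrophil share, 14.5%, and also the highest levels of Ly6c2, Lyz2, Ccr2, F13a1, Fcgr1, Siglech and Klf4 among the 6 libraries. The same library had the highest erythroid share, 1.10%, and T and NK cell share, 0.0304%, and the lowest HSC share, 0.0694%. CD38-positive replicate 2 had the lowest neutrophil share, 7.31%, and the highest levels of Csf1r, Irf8 and Cx3cr1. It also had the lowest B and plasma cell share, 0.0158%, and T and NK cell share, 0.0145%.

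The design asks which transcripts differ between HSCs with high and low surface CD38. None of the 10 genes passed an adjusted p-value of 0.05 in edgeR's quasi-likelihood test with pairs as a block, where 2 of 14785 genes did (0.0135%), and 0 of the 10 passed in DESeq2 or limma-voom with the same block. At an unadjusted p-value under 0.05, DESeq2 and edgeR both gave 4 of the 10. In edgeR these 4 were Irf8, Csf1r, Cx3cr1 and F13a1, each with a higher fitted value in CD38-positive libraries, against 2.47% of all genes tested in that direction. That count depended on the pairs included. It was 3 without the block, where Cx3cr1 had an edgeR unadjusted p-value of 0.23, and 3 without pair 1, where F13a1 had 0.239. It was 2 without pair 3, where Cx3cr1 had 0.127 and F13a1 0.0781, and without pair 2 it was 4, with Ccr2 (0.0434) in place of Cx3cr1 (0.0591). Irf8 and Csf1r were under 0.05 in each of these fits. Of the 10 genes, 9 had a positive log2 fold change (50.1% of all genes tested) and 5 were higher in 3 of 3 pairs (13.2% of all genes). The count of positive values was 8 without the block and in limma-voom, and 6 without pair 1. The median log2 fold change of the 10 was 0.34, and that of all genes 0.0004; by pair the median of the 10 was 0.43, 0.10 and 0.45 in pairs 1, 2 and 3. All 10 genes passed the filter on low counts.

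**Figure D2:**
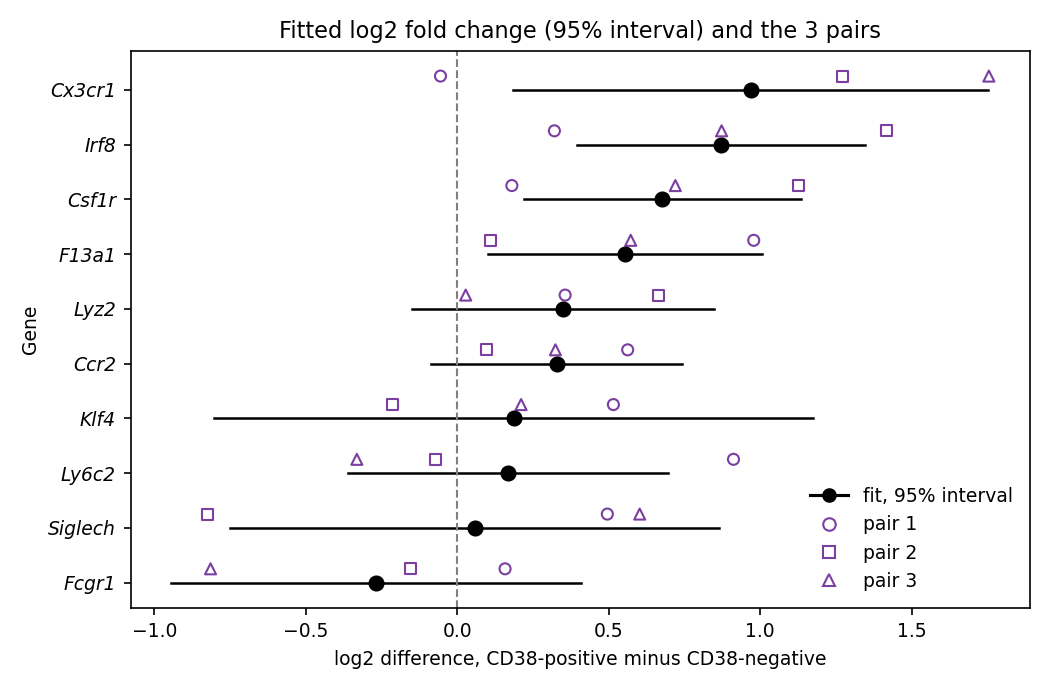
Log2 difference between CD38-positive and CD38-negative libraries (horizontal axis) for each gene (vertical axis); filled circles and lines are the edgeR fit and its 95% interval, and open symbols are the 3 pairs. The fitted values run from -0.27 for Fcgr1 to 0.97 for Cx3cr1, and the intervals of Cx3cr1, Irf8, Csf1r and F13a1 lie above 0 before any adjustment for the number of genes tested.

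Among the transcription factors, Irf8 (GRCm38 chromosome 8, 120736358 to 120756694, plus strand), which steers progenitors to monocytes and dendritic cells and away from neutrophils, had the smallest p-value of the set. It was at 171, 254 and 110 CPM (counts relative to library size, scaled between libraries by TMM) in CD38-positive replicates 1, 2 and 3 and at 137, 94.96 and 59.9 CPM in the CD38-negative partners. Each CD38-positive library exceeded its partner, but the groups overlapped because CD38-negative replicate 1 was above CD38-positive replicate 3. The means were 178 ± 72.2 CPM (SD, n = 3) and 97.3 ± 38.6 CPM (SD, n = 3). The fitted log2 fold change was 0.87 (SE 0.22, 95% interval 0.40 to 1.35), with an edgeR unadjusted p-value of 0.00151 and an adjusted p-value of 0.695. With no filter beyond 1 read, where 80 genes of 26504 passed, the adjusted p-value of Irf8 was 0.0237, and over all alternatives it ran from 0.0237 to 0.994. No 50-base stretch of its transcripts occurred in another gene.

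Klf4 (chromosome 4, 55527143 to 55532466, minus strand), a zinc finger factor needed for inflammatory monocytes, was the lowest of the set. It had 42, 26 and 17 reads in CD38-positive and 29, 31 and 13 reads in CD38-negative libraries. Levels were 1.64 ± 0.804 CPM (SD, n = 3) and 1.42 ± 0.537 CPM (SD, n = 3), and the groups overlapped throughout. The log2 fold change of 0.19 had a 95% interval from -0.80 to 1.17, and no difference was detectable at this depth.

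Csf1r (chromosome 18, 61100598 to 61132149, plus strand), the receptor for M-CSF and IL-34, followed Irf8. It was at 94.0, 115 and 74.0 CPM in CD38-positive replicates 1, 2 and 3 and at 83.0, 52.6 and 44.9 CPM in their partners. It was higher on the CD38-positive side of each pair, and only CD38-negative replicate 1 reached into the CD38-positive range. Its fitted log2 difference was 0.68 (SE 0.21), with an edgeR unadjusted p-value of 0.00678 and an adjusted p-value of 0.893. By pair it was 0.18, 1.13 and 0.72. The last part of Csf1r lies opposite Hmgxb3, which had 140 to 512 reads against 734 to 2031 for Csf1r, and 14.3% of the 50-base stretches of Csf1r occurred in another gene, most often Hmgxb3. The strand setting of the counting is not given in the sources used here, so reads of the overlap cannot be assigned, while the fitted log2 difference of Hmgxb3 itself was -0.25 (edgeR adjusted p = 0.955). Of the ligands, Csf1 (encoding M-CSF) was at 4.41 ± 1.45 CPM (SD, n = 3) and 4.20 ± 0.979 CPM (SD, n = 3), and Il34 had between 0 and 14 reads and was not tested.

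The chemokine receptors are Cx3cr1 and Ccr2. Cx3cr1 (chromosome 9, 119901616 to 120069879, minus strand), the fractalkine receptor of patrolling monocytes and macrophages, had 150, 181 and 91 reads in CD38-positive and 157, 75 and 23 reads in CD38-negative libraries. This is 8.99, 10.2 and 5.02 CPM against 9.35, 4.17 and 1.41 CPM. The groups overlapped, and pair 1 had a difference of -0.06 on the log2 scale while pairs 2 and 3 had 1.27 and 1.75. The fitted log2 fold change was 0.97 (SE 0.37), with an edgeR unadjusted p-value of 0.0193 and an adjusted p-value of 0.925. Its range over the libraries was wide, 7.28-fold from lowest to highest, exceeded in the set by Siglech alone at 8.03-fold. The ligand Cx3cl1 was at 5.69 ± 3.07 CPM (SD, n = 3) and 9.06 ± 6.99 CPM (SD, n = 3).

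Ccr2 (chromosome 9, 124101950 to 124113557, plus strand), the receptor through which classical monocytes leave the marrow, was at 99.5, 55.8 and 60.0 CPM in CD38-positive and at 67.4, 52.2 and 47.9 CPM in CD38-negative libraries. It was higher in 3 of 3 pairs, with overlapping groups. Fitted over the pairs, the log2 difference was 0.33 (95% interval -0.09 to 0.74), and the edgeR adjusted p-value 0.926. Its ligand gene Ccl2 had 2 to 15 reads per library, and Ccl7 had 0 reads in each library.

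Among the surface and effector proteins, F13a1 (chromosome 13, 36867178 to 37050244, minus strand), a transglutaminase that cross-links fibrin and is made by monocytes and macrophages, was the only gene of the set whose groups did not overlap (3.33% of all genes tested did so with CD38-positive libraries higher). It was at 448, 294 and 304 CPM in CD38-positive replicates 1, 2 and 3 and at 227, 272 and 204 CPM in their partners. On the log2 scale the fitted difference was 0.55 (SE 0.21), with an edgeR unadjusted p-value of 0.02 and an adjusted p-value of 0.925. By pair it was 0.98, 0.11 and 0.57, with the smallest difference in pair 2. F13b, the gene of the other subunit, had 0 reads in every library.

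Lyz2 (chromosome 10, 117277331 to 117282321, minus strand) was at 14170, 8445 and 9535 CPM in CD38-positive and at 11070, 5327 and 9354 CPM in CD38-negative libraries. It was higher in 3 of 3 pairs, but in pair 3 by 0.03 on the log2 scale only, and the groups overlapped. The log2 fold change was 0.35 (95% interval -0.15 to 0.85, edgeR adjusted p = 0.929). Ly6c2 (chromosome 15, 75108158 to 75111970, minus strand) was at 1931, 663 and 674 CPM in CD38-positive and at 1026, 696 and 849 CPM in CD38-negative libraries. CD38-positive replicate 1 stood far above the other 5 libraries. The pair differences of Ly6c2 were 0.91, -0.07 and -0.33, and the fitted log2 fold change of 0.17 became -0.20 without pair 1 (edgeR adjusted p = 0.955 with all pairs and 0.891 without pair 1).

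Fcgr1 (chromosome 3, 96282909 to 96293969, minus strand), the high-affinity receptor for immunoglobulin G, was the only gene with a negative fitted value. It had 121, 89 and 64 reads in CD38-positive and 109, 101 and 103 reads in CD38-negative libraries, or 5.27 ± 1.87 CPM (SD, n = 3) and 6.13 ± 0.460 CPM (SD, n = 3). The log2 fold change was -0.27 (95% interval -0.94 to 0.41), and pair 3 differed by -0.81 while pair 1 had 0.16. The low-affinity receptor Fcgr3, which neutrophils also carry, was 35.9 to 84.5 times as high per base of exon. Siglech (chromosome 7, 55768178 to 55778925, plus strand), a lectin that marks plasmacytoid dendritic cells, had 131, 69 and 28 reads in CD38-positive and 93, 126 and 16 reads in CD38-negative libraries. Both libraries of pair 3 were the lowest for Siglech, and the groups had means of 4.43 ± 3.19 CPM (SD, n = 3) and 4.51 ± 3.14 CPM (SD, n = 3). The log2 fold change was 0.06 (95% interval -0.75 to 0.86), and its sign depended on the setting.

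**Figure D3:**
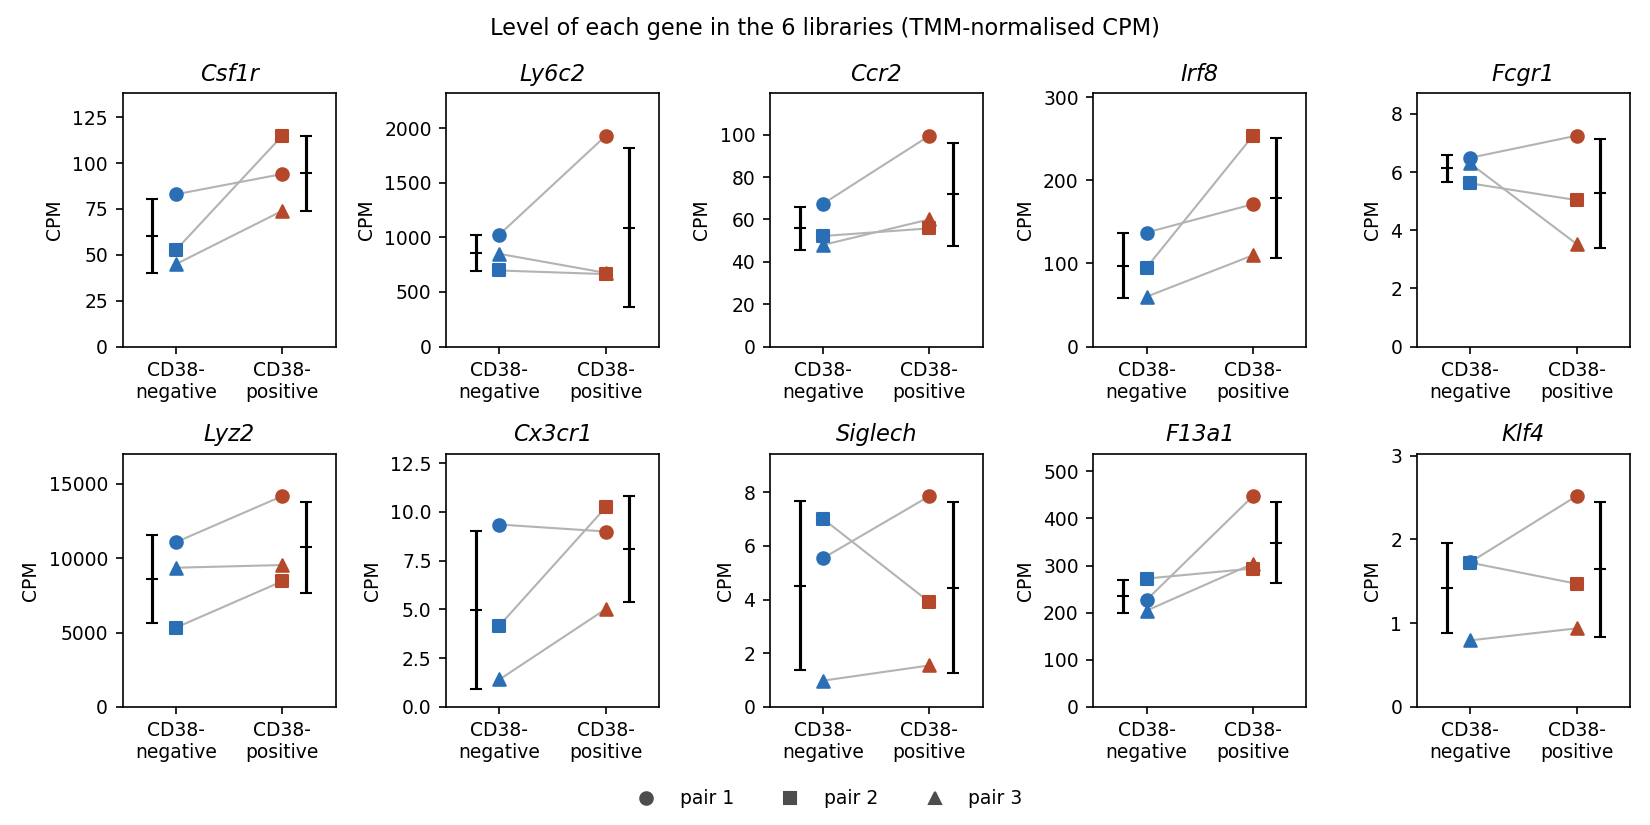
Level of each of the 10 genes in TMM-normalised CPM (vertical axis, linear from 0) in CD38-negative (blue) and CD38-positive (red) libraries, with grey lines joining pairs, symbols naming the pair and black bars the mean ± SD of 3 libraries. Irf8, Csf1r, Ccr2, Lyz2 and F13a1 slope upward in all 3 pairs, and Ly6c2 in pair 1 only.

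The profiles of the 10 genes over the libraries differed in part. All 10 were above their own mean in CD38-positive replicate 1, by 0.36 (Csf1r) to 1.13 (Siglech) on the log2 scale. Each gene's log2 CPM was centred on its mean, and profiles were compared by the root mean square of their differences over the 6 libraries, as a description. The most alike were Ccr2 and F13a1, which differed by 0.225, and Csf1r and Irf8, which differed by 0.231. Ccr2 was also near Lyz2, at 0.283, and near Ly6c2, at 0.288. Lyz2 and Siglech were the least alike, at 1.16. This measure also reflects the size of a gene's swings and counting noise. Siglech had 16 to 131 reads per library and Cx3cr1 23 to 157. Ly6c2 peaked in CD38-positive replicate 1, at 1.10 above its mean, whereas Irf8 peaked in CD38-positive replicate 2, at 1.03 above its mean, where Ly6c2 was at -0.44. Both Cx3cr1 and Siglech were lowest in CD38-negative replicate 3, at -1.87 and -1.74.

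**Figure D4:**
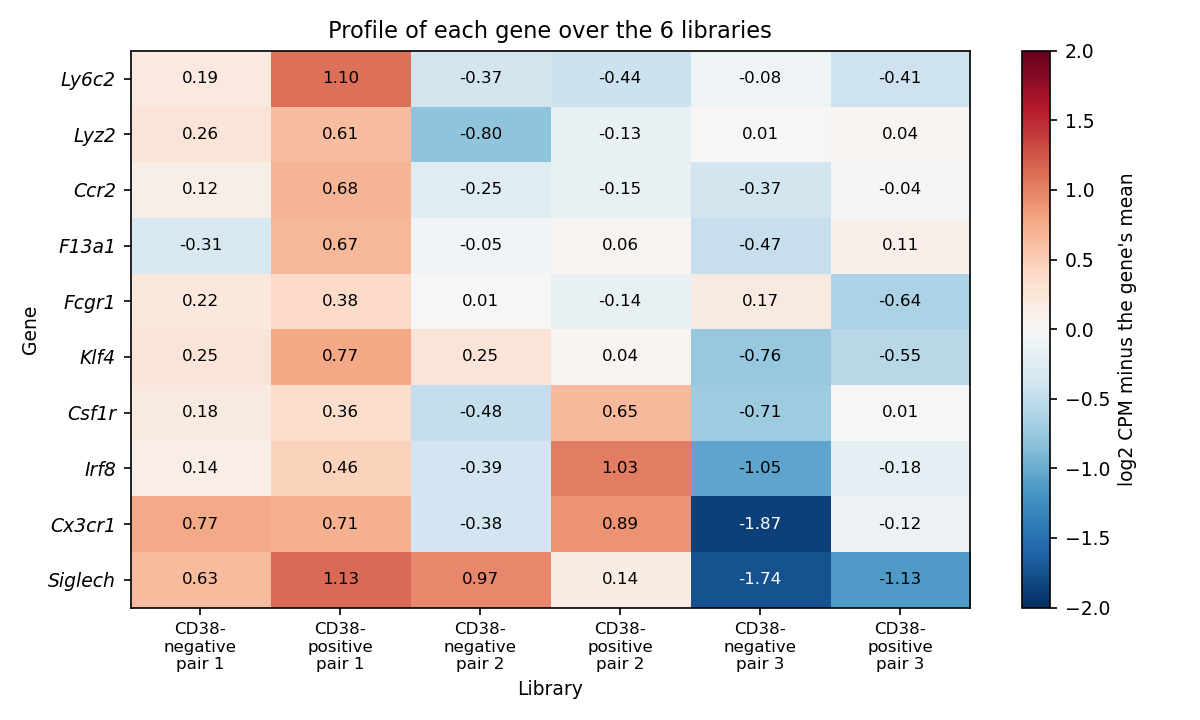
Centred log2 CPM (colour and printed value, log scale) of each gene (rows) in each library (columns, ordered by pair). The rows of Csf1r, Irf8 and Cx3cr1 are highest in CD38-positive replicate 2, at 0.65, 1.03 and 0.89, while Ly6c2, Lyz2, Ccr2 and F13a1 are highest in CD38-positive replicate 1, at 1.10, 0.61, 0.68 and 0.67.

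The genes with profiles most like those of the 3 most abundant genes of the set were sought among 10371 others with a mean of at least 5 CPM. For Ly6c2 they were I830127L07Rik, S100a9, Ms4a4c, Serpinb10 and Ctsg, with differences of 0.131 to 0.167 against an SD of 0.593 for Ly6c2 itself. S100a9 encodes a calcium-binding protein abundant in neutrophils, and Ctsg a protease of their granules. For Lyz2 they were Mxd3, Itgb2l, Aoah, Sgo1 and 9830107B12Rik (0.0709 to 0.0836). For F13a1 they were Gas2, Rnase4, Arg2, 6530402F18Rik and Kif3b (0.109 to 0.161). With 6 libraries and that many candidates, these names describe the libraries only.

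Other genes of the lineage were read from 8 lists, of which 78 of 84 genes were tested. In edgeR, 0 of the 78 passed the adjusted threshold, against 0.0135% of all genes, and 5 had an unadjusted p-value under 0.05, against 5.08% of all genes. The median log2 fold change of the 78 was 0.16, and 54 were positive. Of the 12 classical monocyte genes, 8 had a positive fitted value (median 0.10). The pair medians were 0.55, -0.08 and -0.22, so that pair 1 alone had a positive one. The smallest p-value among them was that of Fn1, which encodes fibronectin, with mean levels of 13.2 ± 4.36 CPM (SD, n = 3) where CD38 was high and 7.25 ± 3.25 CPM (SD, n = 3) where it was low. The fitted difference was 0.91 on the log2 scale, with pair values of 0.71, 0.88 and 1.13 (edgeR unadjusted p = 0.00377, adjusted p = 0.888). The 9 non-classical monocyte genes had a median of 0.16, with 6 positive, and pair medians of 0.23, -0.06 and -0.19.

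Macrophage genes, many of them on cells that also carry CSF1R, were read next. Of 14 genes, 13 were tested, and 10 had a positive fitted value, with a median log2 fold change of 0.24 and pair medians of 0.03, 0.71 and 0.19. Cd5l, a secreted scavenger receptor of tissue macrophages, had means of 29.5 ± 5.60 CPM (SD, n = 3) and 17.6 ± 2.43 CPM (SD, n = 3) and a fitted log2 difference of 0.74 (edgeR unadjusted p = 0.00711, adjusted p = 0.893). Mertk, a receptor for the uptake of dying cells, had 0.91 (edgeR adjusted p = 0.925). The summed share of the macrophage list was 0.0776%, 0.122% and 0.110% in CD38-positive and 0.0844%, 0.0597% and 0.0924% in CD38-negative libraries. It was highest in CD38-positive replicate 2, the library where Csf1r, Irf8 and Cx3cr1 were also highest. Csf1r, Irf8 and Cx3cr1 were lowest in CD38-negative replicate 3. The macrophage share of that library, 0.0924%, was the highest of the CD38-negative libraries. Slc40a1 and Vcam1 had the most reads of the list in every library, so the share rests largely on them. In CD38-negative replicate 3 they had 6573 and 5164 reads, and the next gene, C1qb, had 814. Marco was at 0 reads there, the only gene of the list with 0 in any library. The part of macrophage RNA in the values of Csf1r, Irf8 and Cx3cr1 was not tested.

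The fitted medians of the dendritic cell lists had opposite signs, and in pair 1 the signs were the other way round. Of the 12 conventional dendritic cell genes, 10 had a positive fitted value (median 0.38, pair medians -0.18, 0.37 and 0.80), and 0 had an unadjusted p-value under 0.05. Of 11 tested plasmacytoid dendritic cell genes, 8 had a negative fitted value (median -0.07, pair medians 0.13, -0.66 and -0.05). Ly6d, a surface protein of plasmacytoid and B cell progenitors, was the gene of these lists with an unadjusted p-value under 0.05. It had means of 11.1 ± 7.86 CPM (SD, n = 3) and 16.6 ± 2.44 CPM (SD, n = 3), and its fitted log2 difference was -0.81 (edgeR unadjusted p = 0.0359, adjusted p = 0.926). Tlr9, a sensor of microbial DNA in plasmacytoid cells, was at 0 reads in 4 of 6 libraries. Itgax, the integrin CD11c, was at 0 in CD38-negative replicate 3 and at 10 to 78 elsewhere. Each was the only gene of its list with 0 reads in any library. Among the others, Tcf4 of the plasmacytoid list had 788 to 1431 reads and Flt3 of the conventional list 675 to 1266. The difference between the lists was not tested.

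All 10 myeloid transcription factors listed had a positive fitted value, 9 of them with unscaled library totals, and the median was 0.06. Spi1, which encodes PU.1, was at 78.8 ± 40.9 CPM (SD, n = 3) and 72.5 ± 30.2 CPM (SD, n = 3), and differed by 0.06 on the log2 scale (edgeR adjusted p = 0.981). Its pair values were -0.17, -0.43 and 0.78. Cebpa, a factor of granulocyte and monocyte progenitors, had 66 to 114 reads in the CD38-positive and 70 to 109 in the CD38-negative libraries. The 7 tested genes of ligands and receptor partners had a median of 0.05, and the 5 near relatives of the set one of 0.16. Ly6c1 and Lyz1 had log2 fold changes of 0.43 and 0.26, neither past the threshold (edgeR adjusted p = 0.943 and 0.955).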

How the data were processed

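For each of the 6 libraries the authors deposited a headerless table that pairs Ensembl genes with raw counts. The submitters' processing notes name cutadapt, STAR, HTSeq 0.6.1p1 and the builds GRCm38 and mm10, without roles; strand setting, annotation release and read length are not given in the sources used here. Totals were 16771180 to 18558610 counts, so 3 counts correspond to 0.16 to 0.18 CPM. Symbols matched 49326 of 49585 identifiers; coordinates and exon lengths came from GENCODE M21 (GRCm38).

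In R 4.3.3, edgeR's filterByExpr kept 14785 genes. Libraries were scaled by TMM, and edgeR 4.0.16 tested CD38-positive against CD38-negative by quasi-likelihood with the pair as a replicate block, with Benjamini-Hochberg adjustment over all genes and a threshold of 0.05. Log2 values per pair used a prior count of 2. Deviations of paired libraries from their group means correlated at 0.341, 0.118 and 0.240 in pairs 1, 2 and 3. The pairs come from the series' design text, which leaves unstated whether paired libraries share their mice. With the block, edgeR's p-values rest on the spread of the differences within these pairs of pools, with variance estimates that borrow from other genes. DESeq2 1.42.0 and limma 3.58.1 (voom) were alternatives. The procedure was tested on simulated counts that held no pair effect, so that test does not cover differences between pairs. The genes and lists were chosen with earlier results of these data known. All 10 genes are named, as are those of the wider lists with an unadjusted p under 0.05, family relatives and ligands fixed with the lists, and the 5 genes nearest in profile to each of the 3 most abundant; other names were chosen after values were seen. Ly6d, Fn1, Cd5l and Mertk are the wider list genes named by that p-value, and another is not reported here.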

Additional observations from a re-analysis of the deposited data

How the results depend on the processing

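None of the 10 genes passed the threshold in the edgeR fit with the replicate block, and the count stayed at 0 without the replicate block, with DESeq2, with limma-voom, under other scalings, with a mean of at least 10 reads and when any pair was left out. It was 1 (Irf8) with no filter beyond 1 read. The wider lists had 0 under every alternative run. Over all genes the count of 2 fell to 0 in edgeR when the replicate block was dropped, and to 0 with unscaled library totals, where 417 and 595 genes had an unadjusted p under 0.05. It was 11 with DESeq2, 7 with DESeq2 size factors, 13 with a mean of at least 10 reads and 80 with no filter, and 2 to 41 when a pair was left out; the cause was not tested. Of 100 alternative fold changes of the 10 genes, 92 kept their sign and side of the threshold, 7 changed sign and 1 passed the threshold. Siglech had -0.0295 without the replicate block, -0.0083 in limma-voom, and -0.19 to 0.55 when a pair was left out. When a pair was left out Ly6c2 ran from -0.20 to 0.42, Klf4 from -0.0091 to 0.40 and Fcgr1 from -0.49 to 0.0025, while Irf8 ran from 0.58 to 1.15, Csf1r from 0.44 to 0.93, Cx3cr1 from 0.61 to 1.54, F13a1 from 0.34 to 0.76, Lyz2 from 0.18 (without pair 2) to 0.51 and Ccr2 from 0.21 (without pair 1) to 0.43. The count of the 10 genes with an unadjusted p under 0.05 was 4 in the fit with the replicate block, 3 without the block and 2 to 4 when a pair was left out. The mean share of counts of the 10 genes ran from 1.08% to 1.33% in CD38-positive and from 0.858% to 1.13% in CD38-negative libraries when a pair was left out.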
